A study of Rattus norvegicus with 20 samples.

Results

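The family of mir-15, mir-16, mir-195 and mir-497 was followed across rat tissues and serum in small RNA sequencing data. Its members were taken by name as the miRBase precursors rno-mir-15b, rno-mir-16, rno-mir-195 and rno-mir-497, together with their mature arms. All 4 were among the 444 precursors listed, and their 8 arms were among the 577 mature miRNAs. The animals were untreated male Long Evans Hooded rats at postnatal day 35 that served as a tissue reference outside the drinking experiments. Brain hemispheres were sequenced one animal at a time, giving 3 libraries, and serum was labelled as 3 replicates. The study's methods describe pooling for every tissue except brain, so the serum libraries may be repeats of 1 pool. The serum SDs and every p-value against serum then measure only the spread between libraries, which may be technical. Each of the other 14 tissues (fat, heart, kidney, large intestine, liver, lung, skeletal muscle, pancreas, skin, small intestine, spleen, stomach, testes and thymus) was 1 library that pooled the miRNA of 3 rats, so a pool carries counting error only and has no spread between animals. No group received an agent or carried an altered allele.

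MicroRNAs are cut from hairpin precursors into a 5′ arm (5p) and a 3′ arm (3p), and the arm that is loaded into the silencing complex recognises messenger RNAs mainly through its seed. The 5p arms of this family share a seed and are known to repress cell cycle genes such as cyclins and cyclin-dependent kinases, and also BCL2. They are encoded in separate genomic clusters, and miR-16 is abundant in blood cells, where it is often used as a reference miRNA.

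The 5p arms are printed here because they carry nearly all of the family's reads, with the seed (bases 2 to 8) in capitals. Sequences and positions come from RefSeq on GRCr8, whereas the authors counted reads on Rn5.
rno-miR-15b-5p: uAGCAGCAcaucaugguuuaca
rno-miR-16-5p: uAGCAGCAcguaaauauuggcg
rno-miR-195-5p: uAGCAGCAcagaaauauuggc
rno-miR-497-5p: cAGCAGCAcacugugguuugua
rno-miR-322-5p: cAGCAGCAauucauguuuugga
Of 693 mature sequences in the RefSeq table, 5 held this seed, and all 5 were in the mature list. The fifth is miR-322-5p, encoded on chromosome X beside mir-503. miR-16-5p and miR-195-5p were identical at 19 of 21 positions counted from the 5′ end, with the substitutions G10A and U11G from miR-16 to miR-195. miR-15b-5p matched miR-16-5p at 14 of 22 positions and miR-497-5p at 16 of 22, so miR-195 was closest to miR-16 and miR-497 to miR-15b, each in the other cluster. All the mismatches lie beyond the seed or at base 1.

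The mir-15b/mir-16 cluster lies on chromosome 2 inside Smc4, a condensin subunit gene, between Ift80 and Trim59, with 51 bases between the hairpins. On GRCr8 miR-15b-5p occupies chr2:155555197-155555218 and miR-16-5p chr2:155555343-155555364, both on the plus strand. The mir-195/mir-497 cluster lies on chromosome 10 between Bcl6b and C10h17orf49 and overlaps no other gene in the table, with 255 bases between the hairpins. There miR-497-5p occupies chr10:55450172-55450193 and miR-195-5p chr10:55450509-55450529, again on the plus strand.

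Levels were expressed as RPM, the reads of a precursor scaled to a total of 1000000 precursor reads in its library. Precursor totals ran from 388275 to 1204552 in brain and from 162080 to 3685761 in the pools, but only from 7556 to 10862 in serum, where 3 reads correspond to 276 to 397 RPM. Intervals are 95% Wilson intervals and cover counting error only. Markers of brain, testes, skin and striated muscle were highest in the libraries of those tissues, whereas those of pancreas were not. The pancreas pool held 0 reads of mir-217 and of mir-216a, while mir-122, the hepatocyte miRNA, stood at 14862 RPM beside 14726 RPM in liver. Serum 2 held mir-122 at 142147 RPM, against 21175 and 10340 RPM in the other 2 serum libraries. The pancreas pool was not the highest or the lowest tissue for any member.

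rno-mir-16 was the abundant member in every library and was highest in lymphoid tissue, testes and serum. Its level was 40187 RPM in thymus, 30031 RPM in spleen and 25123 RPM in testes, and the intervals of these 3 pools did not overlap each other or any other pool. The next pools, skin, fat, lung and heart, lay between 10814 and 11529 RPM and neighbours among them overlapped. The hemispheres stood at 7767, 8080 and 6210 RPM, a mean of 7352 ± 1002 RPM (SD, n = 3). The lowest pools were small intestine at 4275 RPM and stomach at 3808 RPM. Serum reached 26601, 20070 and 31400 RPM (26024 ± 5687 RPM, SD, n = 3), from 201, 218 and 249 reads. All 3 serum libraries were thus above all 3 hemispheres, and 2 of them lay between testes and the highest pool.

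rno-mir-15b is transcribed beside mir-16 but gave few reads. In brain it had 27, 15 and 4 reads, or 22.4, 26.3 and 10.3 RPM (19.7 ± 8.34 RPM, SD, n = 3). The pools ranged from 4.91 RPM in kidney, which rested on 3 reads, to 91.1 RPM in thymus and 173 RPM in spleen. Spleen and thymus had intervals apart from each other and from their next neighbours, whereas every neighbouring pair from the third tissue (lung) to the lowest overlapped. Only neighbours in the order were compared, so thymus is not set apart from lower pools with few reads, such as testes with 8. In serum 4, 4 and 2 reads gave 529, 368 and 252 RPM, which rest on so few reads that their order is not resolved.

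rno-mir-195 had a flatter profile with thymus at its foot. The hemispheres were close together at 641, 689 and 603 RPM (644 ± 43.1 RPM, SD, n = 3). Lung (761 RPM), fat (682 RPM), skin (672 RPM), testes (629 RPM) and heart (627 RPM) lay around them, and each overlapped its neighbour in the order. The 3 gut pools were lower, at 166 RPM in large intestine, 170 RPM in stomach and 198 RPM in small intestine. Thymus was lowest at 80.5 RPM, from 53 reads, with an interval below that of every other pool. Serum gave 4, 6 and 0 reads, so its level of 361 ± 312 RPM (SD, n = 3) could not be placed closely among the tissues.

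rno-mir-497, the partner of mir-195, was also lowest in thymus. It stood at 270, 214 and 142 RPM in the hemispheres (208 ± 64.2 RPM, SD, n = 3), and among the pools at 331 RPM in fat, 271 RPM in lung and 247 RPM in skin. Small intestine (29.9 RPM) and thymus (19.7 RPM, from 13 reads) were the lowest and overlapped each other. Serum 1 and serum 2 held 0 reads and serum 3 held 2.

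**Figure D1:**
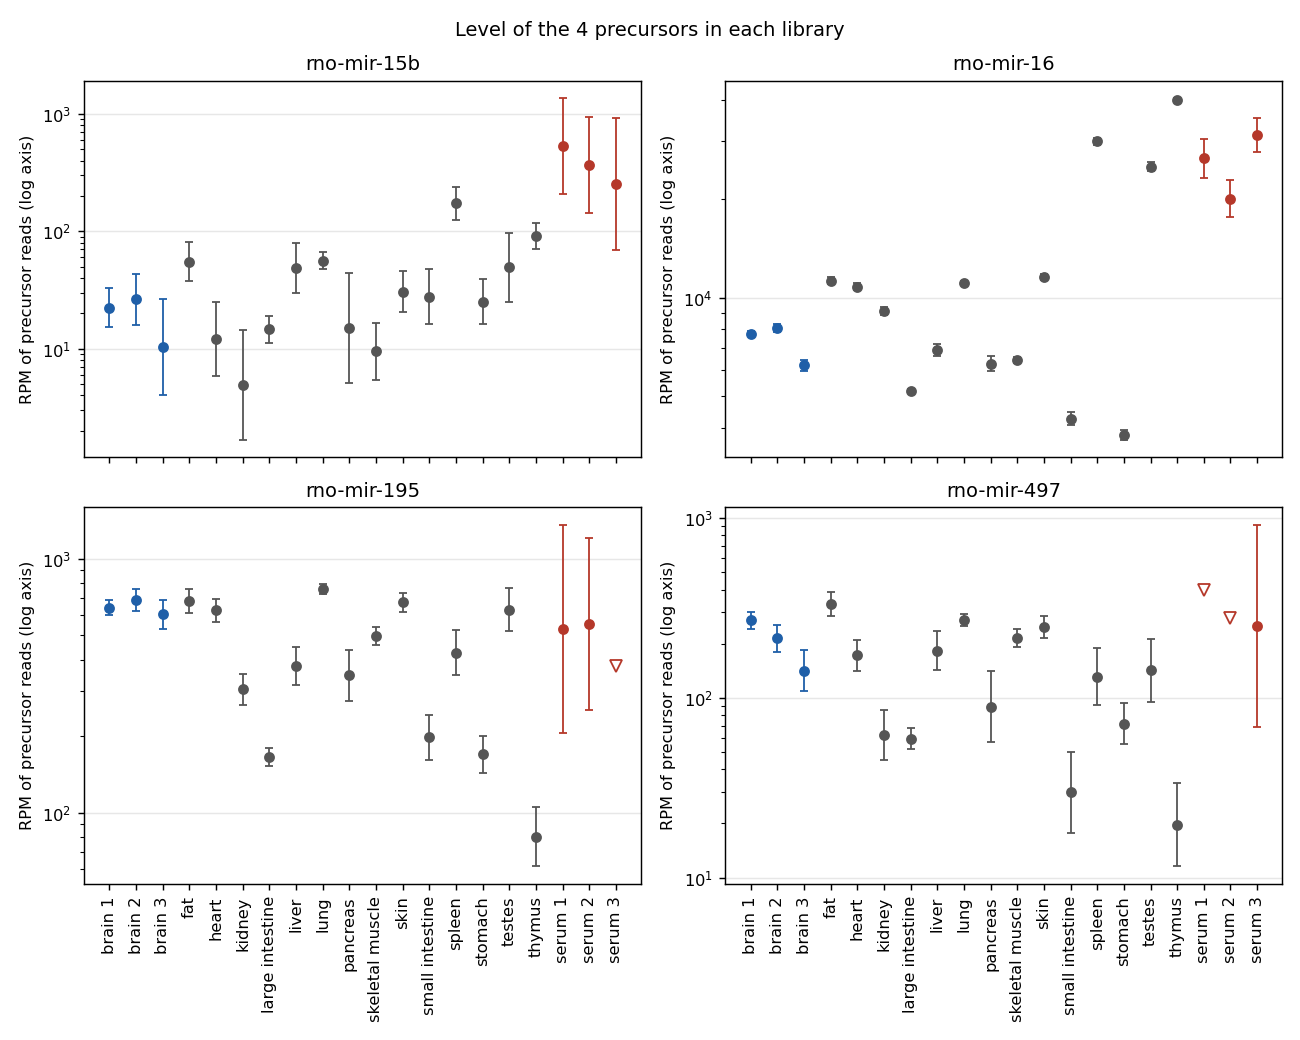
Level of each of the 4 precursors in the 20 libraries, in RPM of precursor reads on log axes. Blue points are hemispheres, grey points pools and red points serum, bars are 95% Wilson intervals, and open triangles mark serum libraries with 0 reads, drawn at the level of 3 reads. mir-16 is highest in thymus (40187 RPM), where mir-195 is lowest (80.5 RPM).

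Over the 15 tissues the levels spanned 35.3-fold for mir-15b, 10.6-fold for mir-16, 9.46-fold for mir-195 and 16.8-fold for mir-497. The SD of log2(RPM + 1) over tissues was 1.28, 1.00, 0.96 and 1.18, against a median of 1.69 over the 295 precursors tested in the brain and pool libraries. These are even profiles compared with most miRNAs. RPM values are shares of a library, and in stomach, large intestine and small intestine the smooth muscle miRNAs mir-143 and mir-145 (2 of 2 with reads) summed to 613588, 318244 and 308669 RPM, against 21691 to 173139 RPM in the other tissue libraries. Their part in the low gut values was not tested. In these bulk samples fewer cells of a type and less RNA per cell cannot be told apart.

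Thymus as the highest tissue for mir-16 and the lowest for mir-195 held under library totals, TMM scaling, DESeq2's size factors and the RefSeq list. The place of brain did not hold. By library totals brain ranked the ninth of 15 for mir-16 and the fourth for mir-195, with levels 0.31 below and 0.59 above the tissue median on the log2 scale. Under TMM it ranked 15 for mir-16 and 11 for mir-195, and under the size factors 15 and 14.

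Shares between members of one library do not depend on the scaling, so the clusters were compared by the reads of mir-195 and mir-497 as a percentage of the reads of all 4 precursors. mir-15a was not listed, so any miR-16 reads from another locus would be counted under mir-16. The shares are thus of reads by listed name. In brain this share was 10.5%, 10.02% and 10.7% (10.4% ± 0.34, SD, n = 3), the highest of the 15 tissues. Skeletal muscle, at 9.93% (interval 9.33% to 10.6%), overlapped the hemispheres, and lung (8.49%) and fat (8.21%) followed. Liver (7.45%), skin (7.37%), heart (6.87%), pancreas (6.48%), stomach (5.93%) and small intestine (5.04%) were intermediate. Large intestine (4.15%), kidney (3.89%) and testes (2.97%) were lower. Spleen held 1.81% (1.52% to 2.16%) and thymus 0.248% (0.195% to 0.316%), and these intervals lay apart from each other and from all other pools. Thymus had 66 reads of the mir-195/mir-497 cluster against 26528 of the mir-15b/mir-16 cluster, whereas lung, with a similar 26622 reads of mir-15b/mir-16, had 2470.

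**Figure D2:**
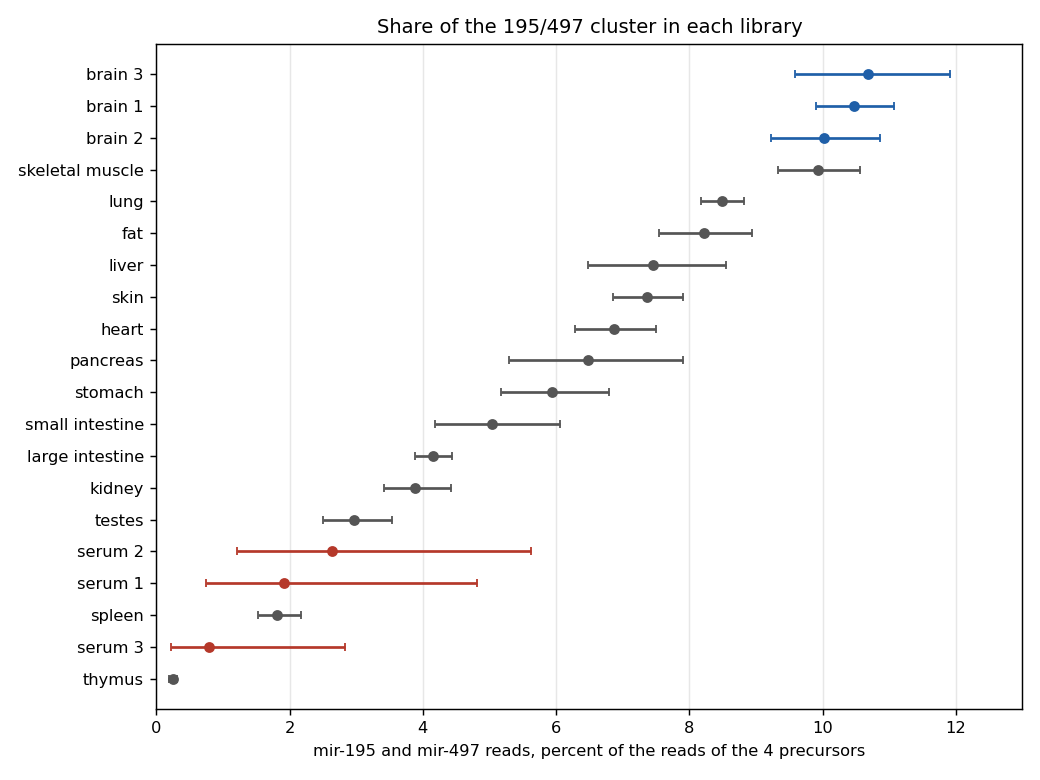
Reads of mir-195 and mir-497 as a percentage of the reads of the 4 precursors in each library, with 95% Wilson intervals. Hemispheres (blue) are at 10.02% to 10.7%, pools (grey) run from 0.248% in thymus to 9.93% in skeletal muscle, and serum libraries (red) lie between 0.791% and 2.63% with wide intervals.

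In serum the share was 1.91%, 2.63% and 0.791% (1.78% ± 0.93, SD, n = 3), from 12 reads of the mir-195/mir-497 cluster in all. Every serum library was below every hemisphere. The log2 ratio of mir-195/mir-497 to mir-15b/mir-16 reads, with 1 read added to each, was -3.11 ± 0.05 in brain and -5.58 ± 0.72 in serum (SD, n = 3 each), a difference of 2.48. The exact two-sided permutation test gave p = 0.1, the smallest this design allows, so the difference cannot pass 0.05 with 3 libraries a group. The serum interval over summed reads, 0.998% to 3.02%, held spleen and testes and excluded the other 13 tissues.

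Blood cell markers differed among the tissues with a low share. The erythroid precursors mir-451 and mir-144 (2 of 3 listed markers, since mir-486 was not in the list) summed to 12816 RPM in spleen and 2210 to 4288 RPM in serum, but to 36.4 RPM in thymus, 18.5 RPM in testes and 4.15 to 21.03 RPM in brain. The leukocyte precursors mir-142, mir-223 and mir-150 (3 of 3) summed to 65613 RPM in thymus, 62030 RPM in spleen and 7089 to 14029 RPM in serum, and to 555 RPM in testes and 237 to 403 RPM in brain. Testes therefore combined high mir-16 and a low mir-195/mir-497 share with low sums of both marker lists, while fat had a leukocyte sum of 13597 RPM and a share of 8.21%. The part of blood and immune cells in the levels of spleen, thymus and serum was not tested.

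Over the 15 tissues, log2(RPM + 1) of mir-195 and mir-497 had a Pearson correlation of 0.92, and that of mir-15b and mir-16 was 0.63. The sums of the 2 clusters had a correlation of 0.03. These are descriptions over tissues that share library totals as denominators. The value between clusters turned on thymus, since it was 0.60 without thymus and 0.73 without thymus and spleen, and it was -0.58 under TMM scaling. The value for mir-15b and mir-16 was 0.32 without thymus and spleen, so it rested largely on those tissues, whereas that of mir-195 and mir-497 was 0.88 without them.

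**Figure D3:**
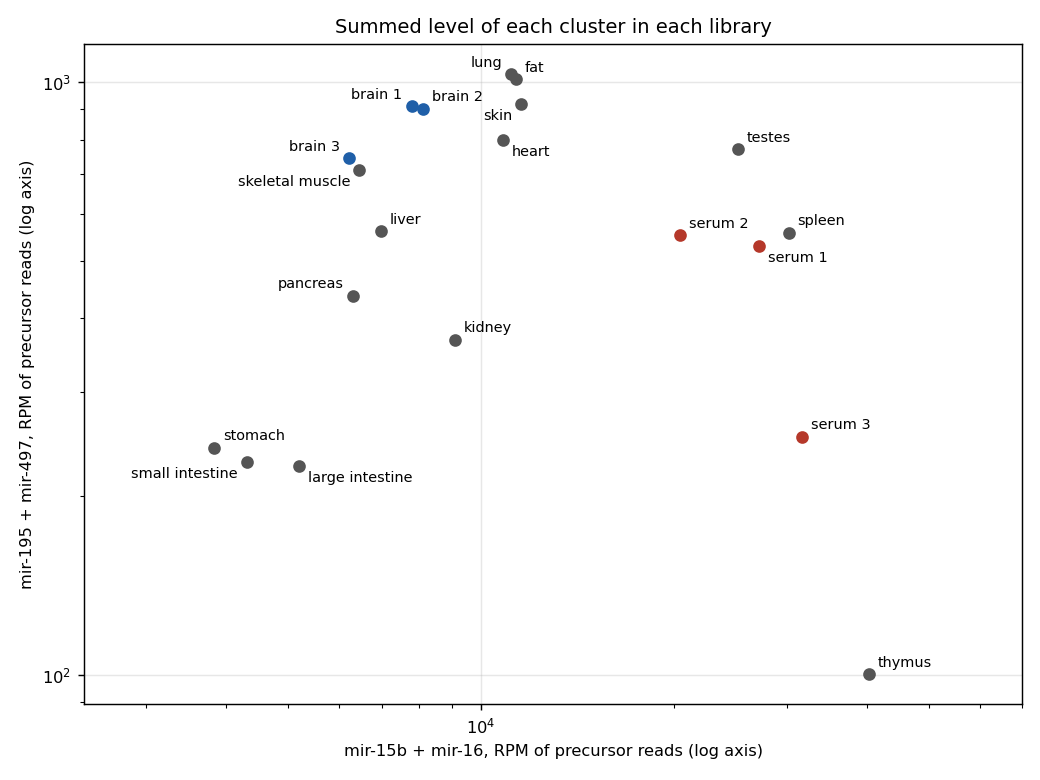
Summed RPM of mir-15b and mir-16 (horizontal) against summed RPM of mir-195 and mir-497 (vertical), both log axes, 1 point a library, with hemispheres blue, pools grey and serum red. Thymus sits alone at the lower right with 40278 RPM of the first cluster and 100.2 RPM of the second, and the 3 gut pools sit together at the lower left.

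By listed reads, partners within a cluster were unequal, more so for mir-15b/mir-16. mir-15b made up 0.280% of the reads of mir-15b and mir-16 together over the 3 hemispheres. In the pools it ran from 0.0539% in kidney (0.0183% to 0.158%) to 0.700% in liver (0.431% to 1.13%). Over the 3 serum libraries it was 10 of 678 reads, 1.47% (0.803% to 2.69%), an interval above that of the hemispheres (0.210% to 0.373%). In the other cluster mir-497 made up 29.6%, 23.7% and 19.0% of the reads in the hemispheres (24.1% ± 5.31, SD, n = 3). The pools ran from 13.1% in small intestine to 32.7% in fat. The hemispheres' own spread is wide enough that most pools cannot be set apart from brain by this share.

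Most reads of every member fell in the 5p arm. For mir-16 the 3p arm had 0 to 3 reads in a library, and the 5p share of arm reads was at least 99.95% in every library. For mir-497 the lowest library was at 97.5%. For mir-15b the 5p share was 100% in brain (45 reads over the hemispheres), 75.9% in thymus (41 of 54 reads, 63.1% to 85.4%) and 73.9% in skin (17 of 23 reads, 53.5% to 87.5%). The upper limits in thymus and skin lay below the lower limit of 92.1% for the summed hemispheres. In brain against serum the 5p share of mir-15b was 100% in all 6 libraries. That of mir-16 differed by 0.01 percentage points (exact permutation p = 1, two-sided, n = 3 each), and mir-195 had 94.1% in brain against 100% in the 2 serum libraries with arm reads (exact permutation p = 0.2, two-sided, n = 3 and 2, the smallest this design allows, and 0.6 after Benjamini-Hochberg adjustment over the 3 members tested). Those 2 serum libraries held only 4 and 6 arm reads of mir-195. Their lower limits were 51.0% and 61.0%, so both intervals held the brain value. mir-497 had no arm reads in serum.

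mir-195 was the member with the most 3p reads. In the hemispheres its 5p share was 94.1%, 92.8% and 95.5% (94.1% ± 1.34, SD, n = 3). It was lower in skeletal muscle at 82.5% (78.6% to 85.9%), in fat at 83.9% (78.4% to 88.2%) and in lung at 86.8% (84.7% to 88.6%), and those upper limits lay below the lowest hemisphere. Skin, at 88.6% (84.6% to 91.7%), was below it too. Kidney, liver, spleen, stomach, testes and small intestine, between 93.9% and 95.8%, were near brain. The pools have no replicate libraries, so the spread of this share between animals is not known for them.

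The reads counted for the mir-195 precursor were also often counted for neither of its listed arms. This fraction was 26.1% ± 1.34 (SD, n = 3) in brain and between 27.5% in testes and 48.4% in small intestine, whereas it was 0.94% to 2.76% for mir-16 in the tissue libraries. Over all brain and pool libraries it was 32.8% for mir-195, 2.16% for mir-15b, 1.34% for mir-16 and 2.87% for mir-497. Among 154 precursors with both arms listed and at least 100 reads the median was 22.8%, and 64 had a larger fraction than mir-195, so mir-195 was not unusual and its relatives were low. mir-195 levels on the mature list are therefore lower, relative to mir-16, than on the precursor list.

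**Figure D4:**
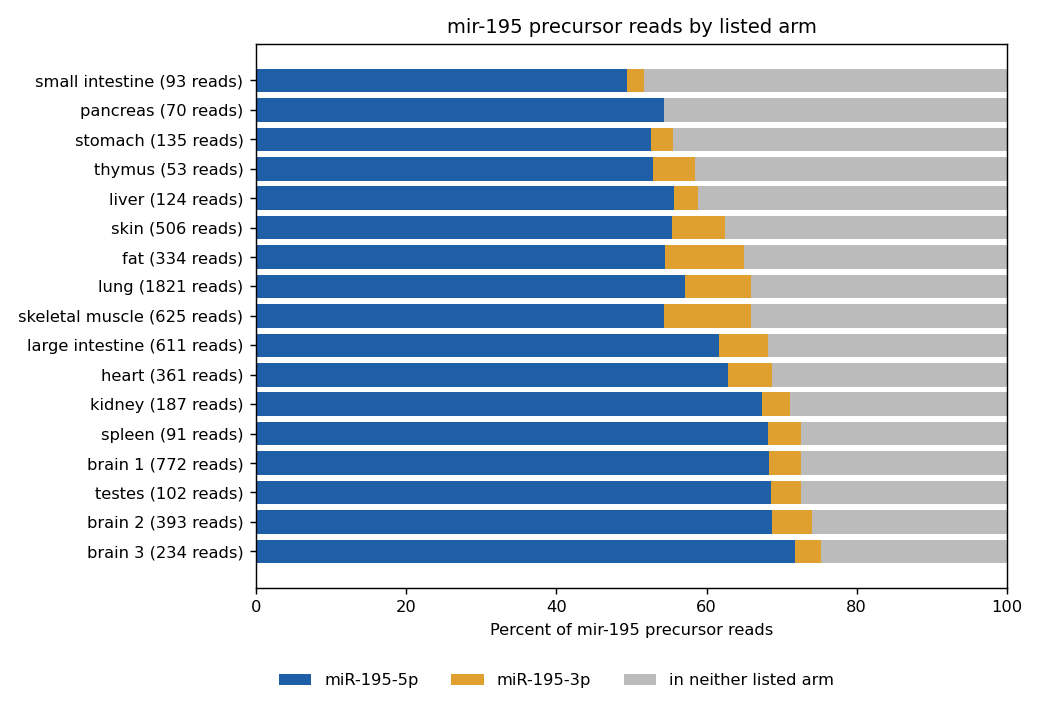
Percentage of mir-195 precursor reads counted for the 5p arm (blue), the 3p arm (orange) and neither listed arm (grey) in each brain and pool library, ordered by the last. The hemispheres are at 24.8% to 27.5% in neither arm and small intestine at 48.4%, and the 3p segment is widest in skeletal muscle and fat.

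Since the 5 mature arms with the shared seed could act on the same sites, their reads were also summed. The sum, in RPM of mature reads, was 9543 ± 1251 in brain (SD, n = 3) and ran from 4528 in stomach to 49626 in thymus, with 42707 in testes and 39327 in spleen. In serum it was 40209 ± 7145 (SD, n = 3). miR-16-5p made up 89.9% ± 0.33 of the sum in brain, 97.0% ± 1.95 in serum (SD, n = 3 each), and from 84.7% in heart to 99.4% in thymus. The remainder differed between tissues. miR-195-5p and miR-497-5p reached 5.59% ± 0.65 and 2.39% ± 0.58 in brain, more than miR-322-5p at 1.85% ± 0.12, whereas miR-322-5p was 10.7% of the sum in heart, where it exceeded both.

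Brain was compared with serum by edgeR's quasi-likelihood test, with Benjamini-Hochberg adjustment over all 235 precursors tested. mir-16 was lower in brain, where 18.7% of all tested precursors were called lower and 44.7% higher. For mir-16 the log2 fold change was -1.92 (SE 0.22, edgeR adjusted p = 1.1e-05), and all 3 hemispheres were below all 3 serum libraries. Across 13 alternatives it ran from -2.16 to -0.67 with an adjusted p of at most 0.0152. The median log2 fold change of all tested precursors was 2.15, but precursors could pass the filter through brain alone. With 10 counts required in every library the median was 0.68 over 51 precursors, and mir-16 was still below 0. mir-195 had a log2 fold change of 0.63 (SE 0.54, edgeR adjusted p = 0.306) and mir-497 of 1.34 (SE 1.00, adjusted p = 0.252), with 10 and 2 serum reads behind them, and both entered the test only through brain. mir-15b was below the filter of 10 counts in 3 libraries and was not tested here.

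On the mature list miR-16-5p was lower in brain (log2 fold change -1.73, SE 0.38, edgeR adjusted p = 1.4e-04), where 67.0% of 212 mature miRNAs were called in either direction. miR-195-5p had a log2 fold change of 0.30 (SE 0.52, edgeR adjusted p = 0.60). miR-497-5p had 0 reads in all 3 serum libraries and entered the test only through brain, where it is high, so its call is not used. At the brain level of 232 ± 76.8 RPM (SD, n = 3) about 4.02 reads would have fallen in the 17336 mature reads of serum. The interval over summed serum reads reached 222 RPM, within the spread of the hemispheres, so no fold difference is given.

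Brain was then set against all 14 pools together, with the differences among tissues as part of the error. mir-16 was called lower in brain, where 18.6% of 295 precursors were, with a log2 fold change of -1.74 (SE 0.53, edgeR adjusted p = 0.0156). For mir-15b the log2 fold change was -2.04 (SE 0.79, edgeR adjusted p = 0.047). With 27, 15 and 4 reads in the hemispheres, mir-15b could not pass the filter on brain alone. It entered the test through the pools, so its call is not used. By RPM the hemispheres lay inside the range of the pools for both members. With library totals in place of TMM the mir-16 value was -0.82 and that of mir-15b -1.13, with edgeR adjusted p of 0.316 and 0.281, and both calls were also lost without any 1 of the 3 hemispheres (adjusted p 0.0849 to 0.109 and 0.117 to 0.172). In all, mir-16 lost its call in 5 of 22 alternatives and mir-15b in 13 of 21. mir-195 (-0.44, SE 0.49, edgeR adjusted p = 0.456) and mir-497 (-0.48, SE 0.62, adjusted p = 0.521) were not called. With library totals their values were 0.60 and 0.53, whereas DESeq2 called both lower (-1.09 and -1.15, DESeq2 adjusted p = 0.0021 and 0.0264). DESeq2 called 119 of all 295 precursors lower, with a median log2 fold change of -0.44. In edgeR the median over all tested precursors moved from 0.17 with TMM to 1.20 with library totals, and relative to it mir-16 was lower under both. The hemispheres are 1 tissue counted as 3 libraries, so these p-values can be too small.

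Serum against the pools gave 1 higher member of 4, where 5.93% of 236 precursors were called higher. This was mir-15b, with a log2 fold change of 2.00 (SE 0.64, edgeR adjusted p = 0.0289), resting on 10 serum reads. The call was lost in 5 of 21 alternatives, among them DESeq2 (adjusted p = 0.0567) and leaving out serum 1 (0.157) or serum 2 (0.0980). mir-16 had a log2 fold change of -0.33 (SE 0.56, edgeR adjusted p = 0.631) with TMM and of 1.00 with library totals. mir-195 (-1.48, SE 0.79, edgeR adjusted p = 0.186) and mir-497 (-2.26, SE 1.00, adjusted p = 0.108) did not pass, where 16.9% of precursors were called lower and the median of all tested was -2.18. The 3 comparisons share their brain, serum or pool libraries.

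**Figure D5:**
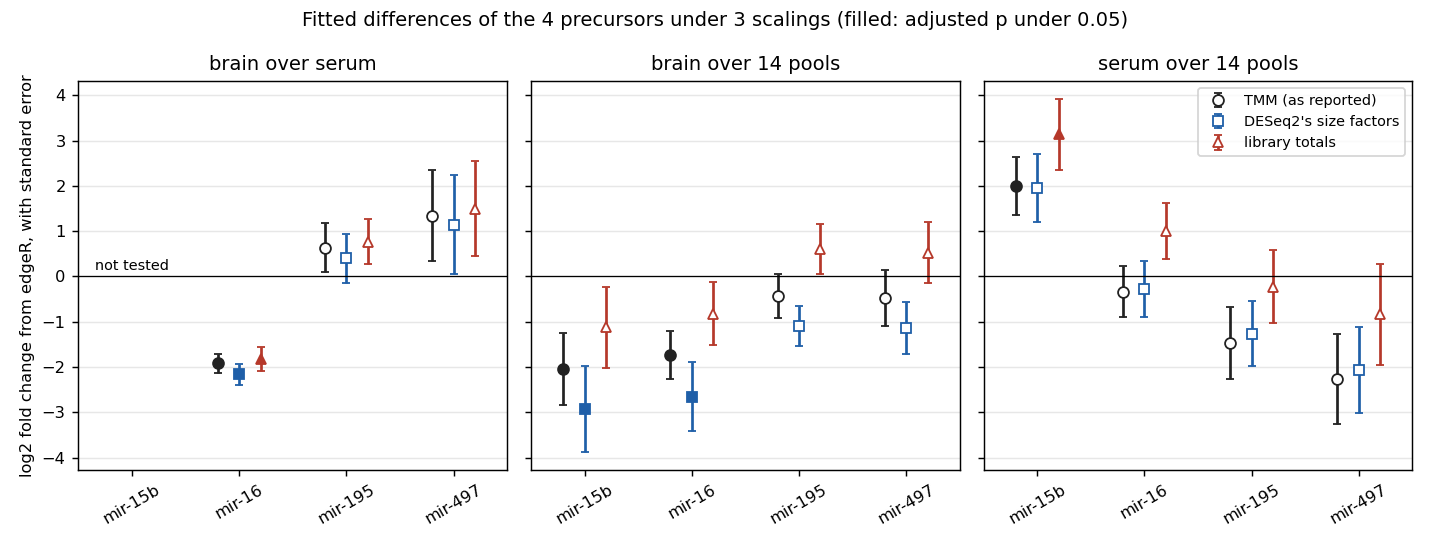
Log2 fold changes of the 4 precursors from edgeR in the 3 comparisons and under TMM (circles), DESeq2's size factors (squares) and library totals (triangles). Bars are standard errors computed from the F statistic. Filled symbols have an adjusted p under 0.05. mir-16 is below 0 and filled in brain over serum under all 3 scalings, while mir-195 and mir-497 change sign between scalings in brain over the pools.

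The wider group of miR-15 and miR-107 relatives holds 7 further precursors in the list, which carry related seeds. mir-322 and mir-503 form a cluster on chromosome X and were each listed as 2 copies, and mir-103 (2 copies) and mir-107 lie in host genes of the pantothenate kinase family. Copies share a mature sequence, so the division of reads between them is uncertain. In brain against serum 5 of the 7 could be tested. The 2 copies of mir-103 stood at 1624 ± 73.2 and 1679 ± 15.3 RPM in brain and at 515 ± 124 and 148 ± 31.9 RPM in serum (SD, n = 3 each). mir-107 stood at 499 ± 34.7 RPM in brain (SD, n = 3) and had 0 reads in serum, where the interval over summed reads reached 146 RPM. These 3 precursors had under 10 reads in each serum library. They entered the test only through brain, where they are high, so their calls are not used. The 2 copies of mir-322 were lower in brain (-1.80 and -1.95, edgeR adjusted p = 0.0033 and 0.0020), resting on 17 and 19 serum reads. The mature list did not show this. There miR-322-5p stood at 177 ± 30.1 RPM in brain (SD, n = 3) and had 0 reads in serum, and miR-322-3p had 1 serum read. The serum reads of these precursors were thus almost all counted for neither listed arm.

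In brain against the pools both copies of mir-322 were lower (-2.59 and -2.58, edgeR adjusted p = 0.0366 and 0.0398). In serum against the pools the copies of mir-103 and mir-107 entered the test only through the pools, as did mir-503 in brain against the pools, and no call is given for them. The mir-322 profile was unlike that of mir-16. Its first copy stood at 2028 RPM in heart and 2025 RPM in lung, 1150 RPM in skeletal muscle and 152 RPM in thymus, and at 203 ± 8.59 RPM in brain (SD, n = 3).

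Among 294 other tested precursors, those most like each member over the 15 tissues by Pearson correlation of log2(RPM + 1) were listed, as a description. For mir-16 they were mir-106b (0.94), mir-17-1 (0.89) and mir-93 (0.89), all of the related mir-17 family clusters. Each of these 3 had thymus, spleen and testes as its highest tissues in that order, as mir-16 did. For mir-15b they were mir-140 (0.86), mir-92a-2 (0.86) and mir-425 (0.80). For mir-195 they were mir-151 (0.93), its own partner mir-497 (0.92) and mir-99a (0.91), and for mir-497 they were mir-195, mir-99a (0.90) and mir-676 (0.88). Thymus was the lowest of the 15 tissues for mir-151, mir-99a and mir-676, as it was for mir-195 and mir-497. All these values share the library totals. The precursors were picked by their likeness over these same tissues, so sharing the highest or lowest tissues largely follows from that choice.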

How the data were processed

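Small RNA was measured in 20 libraries. The authors prepared them with the TruSeq Small RNA kit, sequenced on a MiSeq, trimmed at a phred score of 20, aligned to Rn5 with Bowtie and quantified in Partek Flow and Strand NGS (versions not given in the sources used here). The authors deposited expected counts, estimated per feature and not normalized, on 3 lists: RefSeq, and miRBase 21 precursors and mature arms. Reads of near-identical copies may be split between them. The members and lists were chosen with earlier results of these data known.

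RPM was computed within each list. Counts were rounded for edgeR 4.0.16 (R 4.3.3), with TMM and Benjamini-Hochberg adjustment at 0.05, keeping features that reached 10 counts in 3 or more of the libraries compared. The SE given with an edgeR log2 fold change is its size divided by the square root of the test's F statistic. DESeq2 1.42.0 was an alternative. Others were the scaling, the count filter, the RPM added, each library left out, the RefSeq list and the replicate block. Leaving out thymus, thymus with spleen, or pancreas was chosen after seeing the data. Named beyond the family were the other precursors of the miR-15 and miR-107 group and, for each member, the 3 precursors most correlated with it. Levels, intervals and exact tests used SciPy 1.17.1 with NumPy 2.4.6 and pandas 2.3.3 under Python 3.11.15, and figures Matplotlib 3.10.9. Sequences and neighbouring genes came from RefSeq tables of GRCr8, in which all 4 precursors and 8 arms were found.

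Brain and serum replicates carry the same numbers in the labels, and the methods draw all tissues from the same 3 rats, so the numbers pair them unless serum was pooled. Their same-numbered deviations correlated at 0.10, -0.11 and -0.08 over 75 precursors. All replicate libraries differed by more than sampling noise. On simulated counts with 60 miRNAs changed 8-fold (10 simulations), 75% were recovered for brain against serum (219 tested on average), 68.8% on the mature list (190), 49.5% for brain against the pools (284) and 26% for serum against the pools (224). Depth limits serum most, with 4887 to 7022 mature reads a library. The human serum, drinking and stem cell experiments were not analysed here.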

Additional observations from a re-analysis of the deposited data

How the results depend on the processing

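Of 446 values recomputed under an alternative, 324 kept direction and call or moved by less than 1 SD, 62 lost a call or fell in count (15 of them counts of calls over a whole comparison), 11 gained a call, 28 moved further and 21 changed sign. The brain call of mir-16 against serum held in all 13 alternatives. Counts of called miRNAs fell when 10 counts were required in every library, which also left fewer to test. In brain against serum they were 46 of 51 precursors and 26 of 35 mature arms. They were 32 of 100 in brain against the pools and 31 of 49 in serum against the pools. Leaving out 1 library gave 55 to 141, 36 to 128, 38 to 148 and 30 to 62 calls in these comparisons, against 149, 142, 126 and 54. The low ends came from leaving out a hemisphere or serum 1 or 3; with 2 hemispheres against serum the filter kept only 68 precursors. The replicate block gave 141 and 125 calls in brain against serum, a cluster difference of 2.48 (paired exact p = 0.25, the smallest possible) and changed no member's call.

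Sign changes were as follows. The correlation between clusters (0.03) was -0.58 with TMM and -0.30 with size factors. The brain level over the tissue median, 0.59 for mir-195 and 0.55 for mir-497, was -0.43 and -0.17 with TMM and -1.09 and -0.88 with size factors. Leaving out 1 serum library gave -0.063 (serum 3) to 1.33 (serum 2) for mir-195 in brain against serum and -0.32 to 1.12 for miR-195-5p, and library totals gave -0.12 for the latter. Brain against the pools with library totals gave 0.60 for mir-195 and 0.53 for mir-497, and with the strict filter 0.20 and 0.18. There DESeq2 called both lower (-1.09 and -1.15), as it did 119 of 295 precursors. Serum against the pools for mir-16 was 1.00 with library totals and, with 1 library left out, -0.36 (serum 3) to 0.12 (serum 2), being above 0 also without the kidney, large intestine, liver, lung, pancreas or small intestine pool. The causes were not tested. With no filter on low counts mir-195 and miR-195-5p were called higher in brain than in serum (edgeR adjusted p = 0.0183 and 0.0347). Without serum 3, mir-497 was called in both serum comparisons, with 0 serum reads left. Serum depth limits mir-15b, mir-195 and mir-497, which had 10, 10 and 2 serum reads in all.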

Other observations

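The 3p arms, which carry seeds unlike that of the 5p arms, had most of their reads from mir-195. Over the 14 pools and 3 hemispheres miR-195-3p gave 453 reads, against 37 of miR-15b-3p and 9 of miR-497-3p. miR-15b-3p reached 13 reads in thymus and 6 in skin. In lung alone miR-195-3p had 159 reads, and in skeletal muscle 72. These are values of single pools and have no replicate check.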
